A study of Mus musculus with 8 samples.

Results

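Keratins are the intermediate filament proteins of epithelial cells, and the members set apart here are 8 keratin genes (Krt5, Krt7, Krt8, Krt14, Krt15, Krt17, Krt18 and Krt19), Sfn, which encodes the epithelial 14-3-3 sigma protein, and Trp63, which encodes the transcription factor p63. They were taken by gene symbol and account for 10 of the 25734 genes, and for 11 of the 39341 probes, on the arrays. Krt7 had 2 probes and the other members 1 each. The choice used no measured value of its own, but it was made with earlier results of these data known.

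The tissue was whole lung of mice on the B6J background, 10 weeks old per the labels. The first group was TGFb1-Tg, 4 mice with a transgene for active human TGF-β1 that doxycycline in the drinking water (1 mg/ml) switches on, and the second was WT, 4 wild-type littermates. TGF-β1 is a growth factor that drives fibrosis and alters epithelial growth. Harvest days of 2 to 14 are given for the study as a whole. Per the file headers the TGFb1-Tg lungs had 14 days of doxycycline and the WT lungs had plain water. The labels' protocol is worded alike for all samples and does not say what the WT lungs drank. Which cells express the transgene, and from which promoter, is not given in the sources used here. Each lung, in Cy5, was hybridised with a pool in Cy3. That pool is 1 combined wild-type RNA per the labels. Per the headers it was pooled from 4 uninduced transgenic lungs on the TGFb1-Tg arrays, and from 4 wild-type lungs on the WT arrays.

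The pools were not 1 RNA. Xist, the transcript of the inactive X chromosome, read 0.01 to 0.02 in the pool of the TGFb1-Tg arrays and 1.04 to 1.13 in that of the WT arrays. WT replicate 1 stood apart from the other 3 WT lungs, with 4.6 against 0.03 to 0.04 for Xist. The brighter probe of Ddx3y, a gene of the Y chromosome, read 0.04 in that lung. It read 6.83 to 8.34 in the other WT lungs and 8.45 to 10.35 in TGFb1-Tg lungs. By both genes WT replicate 1 was female and the other lungs were male, and the pool of the WT arrays was mixed. Sex is not in the labels. Without WT replicate 1, 5 members were still called higher and 2 lower by limma. If the headers are right, a difference between the groups is the induced transgenic lung over its uninduced pool minus the WT lung over its own. Doxycycline and transgene then cannot be told apart. Whether the WT pool was made from these same 4 WT lungs is not stated. Its mean was near theirs, at 5.3 against 5.32 for Krt18 and 0.26 against 0.265 for Krt15. If it was, WT log2 ratios centre near 0 by construction and are not an independent control. This was not tested. Tgfb1 itself, read by a probe for the mouse gene, had sample intensities of 1.45, 1.7, 1.32 and 1.41 in TGFb1-Tg lungs, against 0.61, 0.64, 0.76 and 0.62 in WT lungs. Its difference in log2 ratio was 1.03 ± 0.08 (SE, n = 4 each; exact permutation p = 0.0286, two-sided, the smallest that 4 against 4 arrays allow). Whether that probe reads the human transgene is not known.

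Keratin filaments are built from pairs, each of 1 type I and 1 type II protein. The simple keratins Krt8 (type II) and Krt18 (type I), with Krt7 (type II) and Krt19 (type I), line single-layered epithelium such as that of the airways and alveoli. Krt5 (type II) and Krt14 and Krt15 (type I) are typical of basal cells, the stem cells of pseudostratified airway epithelium, which depend on Trp63. After alveolar injury in mice, epithelial cells in transit from the alveolar type 2 to the type 1 state are known for high Krt8 together with Sfn and Cldn4. In human fibrotic lung, related cells carry KRT17.

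The simple keratins and Sfn were higher in TGFb1-Tg lungs, and the basal keratin Krt15 was lower. Values are given as intensity, on the linear scale of the deposited table, and as log2 of sample over pool, and differences are TGFb1-Tg minus WT in that log2 ratio. Of the 10 members, 5 were called higher (Krt7, Krt8, Krt18, Krt19 and Sfn) and 2 lower (Krt14 and Krt15) at an adjusted p under 0.05 in the limma fit over all genes. Krt5, Krt17 and Trp63 were not called. In that fit 19% of the 25647 genes tested were called higher and 19.8% lower, 38.8% in all. The 2 groups of arrays did not overlap for 8 members, 6 higher and 2 lower, where the same held for 18.2% of all genes in the higher and 19.1% in the lower direction, 37.4% in all. After quantile normalization of the ratios 3 members were called higher (Krt8, Krt18 and Sfn) and 0 lower, against 5.63% and 4.95% of all genes. The median difference was 0.48 over the members and 0 over all genes tested. The plot of log2 ratios by array gives every value.

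**Figure D1:**
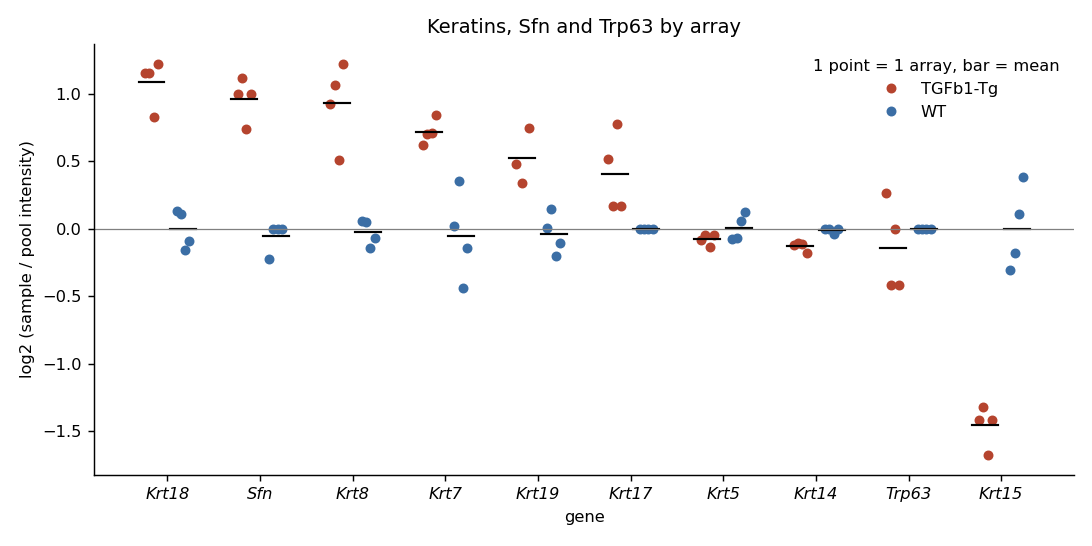
Log2 of sample over pool intensity (vertical axis) for each of the 10 members (horizontal axis), with 1 point per array, TGFb1-Tg left of WT in each pair, and a bar at the mean. Krt18 lies between 0.83 and 1.22 in TGFb1-Tg lungs and between -0.16 and 0.13 in WT lungs, Krt15 lies at or below -1.32 in TGFb1-Tg lungs, and Krt19 has 3 TGFb1-Tg points.

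Promoters of the simple keratins Krt8, Krt18 and Krt7, which moved together, and of the basal keratin Krt5, which was not called, are shown because all 4 genes lie in the keratin cluster of mouse chromosome 15. Each line gives the 250 bases before the RefSeq start on GRCm38.p6, 5′ to 3′ on the strand of the gene, with motif matches on either strand in capitals. They are Krt8 on the minus strand at chr15:102004343-102004592, Krt18 on the plus strand at chr15:102027966-102028215, Krt7 on the plus strand at chr15:101412153-101412402 and Krt5 on the minus strand at chr15:101712906-101713155.
Krt8: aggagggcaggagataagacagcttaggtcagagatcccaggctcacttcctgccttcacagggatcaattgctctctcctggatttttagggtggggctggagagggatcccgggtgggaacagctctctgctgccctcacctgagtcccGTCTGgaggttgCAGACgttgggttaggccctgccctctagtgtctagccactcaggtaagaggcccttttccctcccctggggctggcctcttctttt
Krt18: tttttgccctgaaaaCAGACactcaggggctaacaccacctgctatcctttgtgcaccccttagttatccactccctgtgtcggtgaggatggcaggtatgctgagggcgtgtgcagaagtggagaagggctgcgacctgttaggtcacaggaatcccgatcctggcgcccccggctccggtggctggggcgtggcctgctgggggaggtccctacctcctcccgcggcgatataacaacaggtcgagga
Krt7: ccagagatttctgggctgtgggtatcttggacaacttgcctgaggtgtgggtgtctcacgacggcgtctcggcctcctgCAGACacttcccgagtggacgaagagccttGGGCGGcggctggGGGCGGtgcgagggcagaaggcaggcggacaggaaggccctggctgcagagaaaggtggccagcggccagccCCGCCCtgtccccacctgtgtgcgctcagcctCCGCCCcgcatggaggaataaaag
Krt5: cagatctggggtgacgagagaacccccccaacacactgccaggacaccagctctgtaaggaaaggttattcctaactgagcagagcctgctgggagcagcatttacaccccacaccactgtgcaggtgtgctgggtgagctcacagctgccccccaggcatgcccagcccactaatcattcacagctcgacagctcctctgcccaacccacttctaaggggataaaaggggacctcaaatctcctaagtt

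The motifs searched, on both strands in the 300 bases from 250 before to 50 after the start, were the SMAD box CAGAC, the AP-1 site TGANTCA, the GC box GGGCGG and the TATA box TATAAA. Matches of different motifs did not overlap in these promoters. The SMAD box, the short motif bound by the SMAD proteins that carry TGF-β signals, was found 2 times in Krt8, beginning 99 and 87 bases before the start, 2 times in Krt7 and 1 time in Krt18, and not in Krt5. It occurs in 49.6% of the 32851 promoters of the table. The GC box was found 4 times in Krt7 and in none of the other 3, against 35.7% of all promoters. The AP-1 site was in none of the 4, against 7.81% of all. Krt8 held a TATA box across the annotated start itself, and 13.6% of all promoters hold that motif. RefSeq promoters were matched for 6 of the 10 members, the other 2 being Krt14 and Sfn. Krt14 held 1 SMAD box and Sfn held none of the 4 motifs. Krt15, Krt17, Krt19 and Trp63 were not matched.

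Krt18, the type I partner of Krt8, had the largest positive difference of the members. Its sample intensities were 14.27, 15.32, 11.16 and 14.86 in TGFb1-Tg lungs, against 5.8, 5.69, 4.68 and 5.1 in WT lungs. Every TGFb1-Tg lung was above every WT lung, and replicate 3 was the lowest within each group. The pool read 6.39, 6.88, 6.29 and 6.38 on the TGFb1-Tg arrays and 5.29, 5.26, 5.22 and 5.43 on the WT arrays. The log2 ratios were 1.16, 1.15, 0.83 and 1.22 in TGFb1-Tg lungs, against 0.13, 0.11, -0.16 and -0.09 in WT lungs. The difference was 1.09 ± 0.11 (SE, n = 4 each; limma adjusted p = 0.00025), or 2.13-fold. Of all genes tested, 1.61% had a larger difference.

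Krt8, the type II partner, changed by nearly as much. Sample intensities were 17.74, 19.11, 12.58 and 16.79 in TGFb1-Tg lungs, against 8.21, 7.93, 6.84 and 7.68 in WT lungs. The groups were apart, and TGFb1-Tg replicate 3 was again the lowest of its group. The pool read 9.32, 9.14, 8.81 and 7.18 on the TGFb1-Tg arrays, against 7.88, 7.64, 7.53 and 8.03 on the WT arrays, so that the pools overlapped. The difference in log2 ratio was 0.96 ± 0.15 (SE, n = 4 each; limma adjusted p = 0.00213), or 1.94-fold. In whole lung, more cells that carry these keratins and more keratin RNA per cell cannot be told apart, here and for every member below.

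Krt7, a type II keratin of simple and glandular epithelium, was read by 2 probes of unequal brightness. The brighter probe gave 20.54, 21.5, 22.31 and 22.01 in TGFb1-Tg lungs, against 11.56, 13.39, 7.9 and 10.28 in WT lungs. The dimmer probe gave 4.82, 5.3, 4.73 and 5.12 in TGFb1-Tg lungs, against 1.85, 2.28, 1.13 and 1.57 in WT lungs. On both probes the TGFb1-Tg lungs lay close together and above all WT lungs, and the WT lungs spread more widely, with replicate 2 highest and replicate 3 lowest.

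Krt7 was also the member whose pools differed most upward. The brighter probe read 16.9, 15.38, 15.17 and 14.26 in the pool of the TGFb1-Tg arrays, against 12.01, 10.84, 10.16 and 11.18 in that of the WT arrays. Relative to the median gene of each array, the pool of the TGFb1-Tg arrays was 0.68 higher on the log2 scale (1.60-fold), and 1.00% of all genes had a larger such difference. No test was made of the pools, which are 1 RNA per set of arrays per the headers. Over its pool, Krt7 differed by 0.77 ± 0.16 between the groups (SE, n = 4 each; limma adjusted p = 0.00807). The brighter probe alone gave 0.55 ± 0.15 and the dimmer probe 0.99 ± 0.19, with adjusted p over all probes of 0.0285 and 0.00629 in limma. The brighter probe reached 92.3% of the highest sample intensity on its array in TGFb1-Tg replicate 3, against at most 53.1% on the WT arrays. The part of that ceiling in its smaller difference was not tested.

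Krt19, a type I keratin of simple epithelium that can also pair with Krt7, was measured on 3 of the 4 TGFb1-Tg arrays. Its sample intensities were 11.88, 11.28 and 14.25 in TGFb1-Tg replicates 1, 3 and 4, against 8.09, 8.56, 6.29 and 7.37 in WT lungs. All 3 were above all WT lungs. The difference in log2 ratio was 0.56 ± 0.12 (SE, n = 3 and 4; limma adjusted p = 0.0139), or 1.47-fold.

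Sfn, which encodes a 14-3-3 protein of epithelial cells and is a known target of p53, was higher but dim. It read 0.12, 0.13, 0.1 and 0.14 in TGFb1-Tg lungs, against 0.06, 0.06, 0.08 and 0.08 in WT lungs. The groups did not overlap, and replicate 3 was the lowest TGFb1-Tg lung here as well. The pools overlapped, with means of 0.0625 on the TGFb1-Tg arrays and 0.0725 on the WT arrays. The difference was 1.02 ± 0.09 (SE, n = 4 each; limma adjusted p = 0.000165), or 2.03-fold. The log2 ratios in WT lungs were -0.22, 0, 0 and 0, the zeros being arrays where sample and pool were rounded to the same value. The SE and the adjusted p rest in part on that rounding. Intensities were deposited in steps of 0.01, and values anywhere within those steps allow a difference of 0.64 to 1.40.

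In the p-values per array that the authors' deposited table gives, Krt18, Sfn, Krt15 and the dimmer Krt7 probe were under 0.01 on 4 of 4 TGFb1-Tg arrays. The brighter Krt7 probe and Krt17 were under it on 2 of 4 in the authors' deposited table. Krt8 was under that value on 3 of 4 in the authors' deposited table, with 0.22 on TGFb1-Tg replicate 3. Krt19 was under it on 1 array there, and Krt5, Krt14 and Trp63 on none. No member was under 0.01 on a WT array in the authors' deposited table.

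Among the basal cell genes, Krt15, a type I keratin of airway basal cells and of hair follicle stem cells, was lower. It read 0.06, 0.06, 0.05 and 0.06 in TGFb1-Tg lungs, against 0.21, 0.23, 0.28 and 0.34 in WT lungs. The TGFb1-Tg lungs all sat near the bottom of the scale, and the WT lungs were spread above them without overlap. The pool was 0.15 to 0.16 on the TGFb1-Tg arrays and 0.26 on each of the 4 WT arrays. The difference in log2 ratio was -1.46 ± 0.16 (SE, n = 4 each; limma adjusted p = 0.00042), 2.75-fold higher in WT. Only 0.534% of all genes tested had a lower value, and the rounding steps allow -1.69 to -1.24.

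The other basal genes had smaller differences. Krt5, the type II keratin that marks airway basal cells, read 0.35, 0.33, 0.31 and 0.3 in TGFb1-Tg lungs, against 0.38, 0.41, 0.51 and 0.37 in WT lungs, so that the intensities were apart. Its log2 ratios overlapped, because the pools differed the same way (0.31 to 0.37 on TGFb1-Tg arrays and 0.34 to 0.49 on WT arrays). The difference was -0.09 ± 0.05 (SE, n = 4 each; limma adjusted p = 0.239).

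Krt14, the usual type I partner of Krt5, read 0.23, 0.26, 0.25 and 0.23 in TGFb1-Tg lungs, against 0.32, 0.32, 0.41 and 0.31 in WT lungs. Its difference was small, -0.12 ± 0.02 (SE, n = 4 each), and was called at a limma adjusted p of 0.00261. The log2 ratio was exactly 0 on 3 of the 4 WT arrays, where sample and pool were rounded to the same value, and the rounding steps allow -0.22 to -0.02.

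Trp63, the transcription factor that maintains basal cells, was at the lower end of the scale. It read 0.06, 0.03, 0.04 and 0.03 in TGFb1-Tg lungs, against 0.05, 0.04, 0.05 and 0.05 in WT lungs. The groups overlapped, with a difference of -0.14 ± 0.16 (SE, n = 4 each; limma adjusted p = 0.509). The rounding steps alone allow -0.82 to 0.53, so a change of either sign was not detectable at this signal.

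Krt17, a type I keratin of basal cells and of wounded epithelium, had separate groups only as a ratio. The sample intensities overlapped, at 0.1, 0.09, 0.12 and 0.09 in TGFb1-Tg lungs, against 0.1, 0.13, 0.12 and 0.08 in WT lungs. The pool was 0.07 to 0.08 on the TGFb1-Tg arrays and 0.08 to 0.13 on the WT arrays, where it equalled the sample to the last digit. The log2 ratio was therefore 0 in all 4 WT lungs, against 0.51, 0.17, 0.78 and 0.17 in TGFb1-Tg lungs. The difference was 0.41 ± 0.14 (SE, n = 4 each; limma adjusted p = 0.0550), and in the sample channel alone it was 0.08 (adjusted p = 0.685). Without TGFb1-Tg replicate 2 or replicate 4 the ratio's difference was 0.49 and was called (limma adjusted p = 0.0387 and 0.0388).

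**Figure D2:**
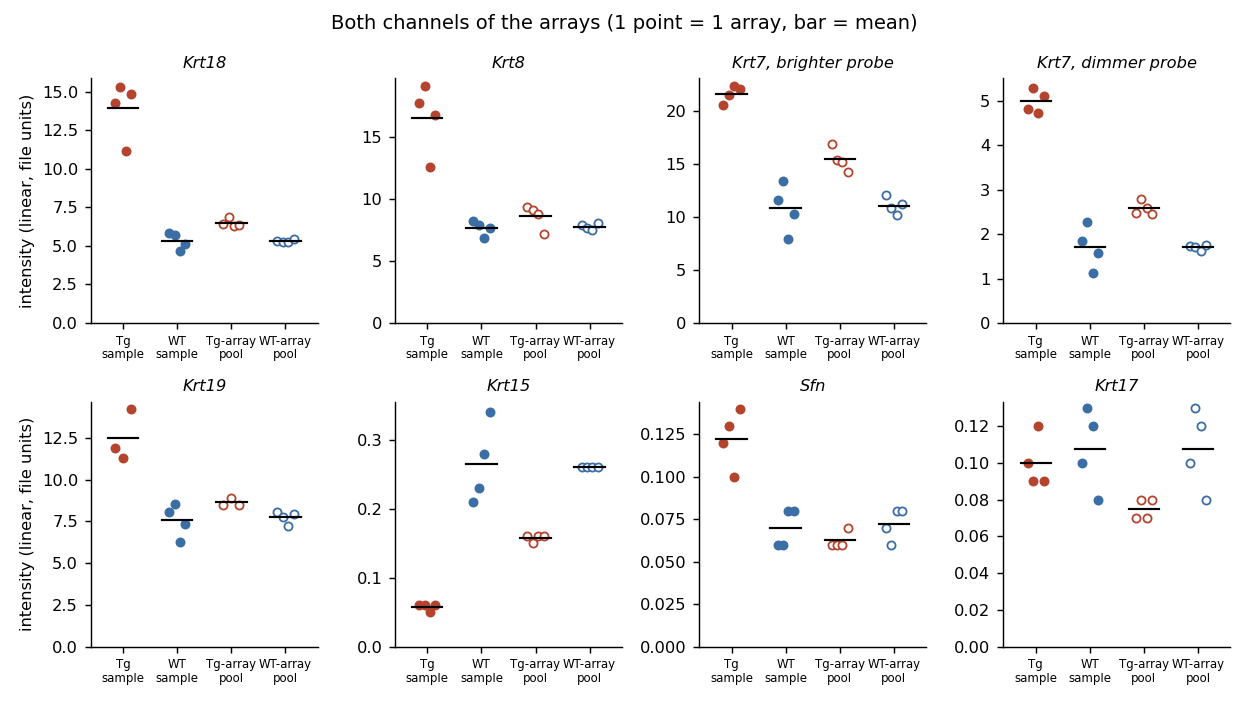
Intensity on the linear scale of the deposited table (vertical axes, from 0) of the sample channel (filled) and the pool channel (open), with 1 point per array and a bar at the mean, for 8 probes of 7 members. Krt7 and Krt18 are higher, and Krt15 is lower, in the pool of the TGFb1-Tg arrays too, and the Krt17 samples overlap, with means of 0.1 in TGFb1-Tg lungs and 0.1075 in WT lungs.

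The sample channel was also compared alone, with each array centred on its median over genes and the pool left out. Before centring, the median gene was 0.17 lower on the log2 scale in TGFb1-Tg lungs, and changes are relative to that shift. The same 7 members were called and in the same direction, 5 higher and 2 lower, where 29% of all genes were called higher and 20.4% lower, 49.4% in all. The groups were apart for 5 members upward and 3 downward, against 30.5% and 15.4% of all genes, 45.8% in all. Differences further from 0 than over the pool were found for Krt18 (1.55), Krt7 (1.48), Krt8 (1.26), Krt19 (0.88) and Krt15 (-2.02), with limma adjusted p between 3.1e-05 and 0.00303. Sfn was at 0.98 (limma adjusted p = 0.000927). Krt14 was at -0.31 and called, and Krt5 was at -0.20 and not called (limma adjusted p = 0.0222 and 0.0971). Without the pool, the difference of Krt7 moved by 0.71, that of Krt15 by -0.56, that of Krt18 by 0.46 and that of Sfn by -0.04, each on the log2 scale. Any difference between the sets of arrays that both channels share stays in this comparison. On the TGFb1-Tg arrays the pool, too, was lower for Krt14 and Krt15, and higher for Krt7, Krt18 and Krt19, without overlap. The part of that in these differences was not tested. The plot of differences with and without the pool sets both side by side.

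**Figure D3:**
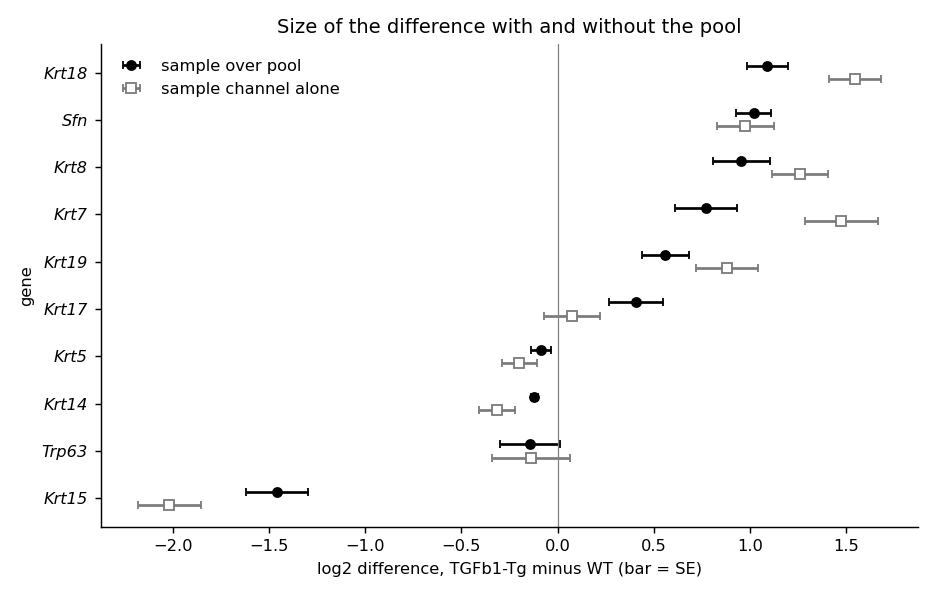
Log2 difference, TGFb1-Tg minus WT, with its SE (horizontal axis) for each member (vertical axis), from sample over pool (filled circles) and from the sample channel alone (open squares). Krt7 is at 0.77 over its pool and at 1.48 without it, whereas Sfn is at 1.02 and 0.98.

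Over the pool, none of 5 known keratin pairs passed the adjusted test of a difference between partners, a threshold that 1 pair alone could not reach. The members were paired, with Krt6a as the partner of Krt17, and compared as the log2 ratio of the type II minus that of the type I partner on each array, with an exact permutation test and adjustment over the 5 pairs. Krt5 minus Krt15 averaged 1.38 ± 0.11 in TGFb1-Tg lungs and 0.01 ± 0.22 in WT lungs (SD, n = 4 each), a difference of 1.37 (exact p = 0.0286, adjusted p = 0.0714). Krt6a, the wound-induced type II partner, minus Krt17 differed by -0.57 at the same exact p of 0.0286 and adjusted p of 0.0714. That exact p is the smallest that 4 against 4 arrays allow. After adjustment over the 5 pairs, a pair could pass only if enough others reached it too. Krt8 minus Krt18 averaged -0.16 ± 0.14 in TGFb1-Tg lungs and -0.02 ± 0.05 in WT lungs (SD, n = 4 each), a difference of -0.14 (exact p = 0.114, adjusted p = 0.190). Krt7 minus Krt19 differed by 0.22 over 3 TGFb1-Tg and 4 WT lungs (exact p = 0.171, adjusted p = 0.214). Krt5 minus Krt14 differed by 0.03 (exact p = 0.6, adjusted p = 0.6). A missed threshold does not show that partners moved alike.

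In the sample channel alone, 3 pairs had the smallest possible exact p and passed after adjustment over the 5 pairs, each at 0.0476 (exact permutation test). They were Krt5 minus Krt15 at 1.82, Krt6a minus Krt17 at -0.97 and Krt8 minus Krt18 at -0.28. Krt5 minus Krt15 and Krt6a minus Krt17 had that same exact p over the pool. They passed here because Krt8 minus Krt18 reached it too, not through a smaller exact p. Krt17 was dim. Krt6a read 0.07 to 0.1 in TGFb1-Tg lungs and 0.13 to 0.2 in WT lungs. Its pool differed the same way, at 0.08 to 0.11 on TGFb1-Tg arrays and 0.14 to 0.19 on WT arrays. Over the pool Krt6a was not called (-0.16, limma adjusted p = 0.190).

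The other keratins on the array did not follow the simple keratins. Of 42 tested, 1 was called higher and 10 lower, with a median of -0.02, where 19% of all genes were higher and 19.8% lower. The lowest values among those called were of Krt23 (-0.64 ± 0.07, adjusted p = 0.0004 in limma), a type I keratin of simple epithelium, Krt222 (-0.40 ± 0.04) and Krt80 (-0.38 ± 0.04), a type II keratin of late epithelial differentiation. The keratin called higher, Krt78 (0.46 ± 0.10), read under 0.1 on average, and so did 24 of the 42 in all. In the sample channel alone Krt78 was at 0.02, Krt80 at -0.06 and Krt23 at -0.39, and none of these was called (limma adjusted p = 0.894, 0.661 and 0.0539).

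Genes of epithelial cells in general were higher. In the pan-epithelial list 9 of 10 genes rose and none fell, beside 19% and 19.8% of all genes, with a median of 0.41. They included St14, a membrane serine protease (1.00 ± 0.06), Spint1, its inhibitor (0.84 ± 0.03), Epcam, an epithelial adhesion molecule (0.63 ± 0.07), and Elf3, an epithelial transcription factor (0.50 ± 0.05). The summed sample intensity of the list was 44.98 to 47.06 in TGFb1-Tg lungs, against 28.12 to 33.91 in WT lungs. Its part in the differences of the simple keratins was not tested.

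Genes known from transitional alveolar epithelium were called higher in 12 of 17 cases and lower in none, with a median of 0.67. Of all genes, 19% were called higher and 19.8% lower. The largest were Areg, an EGF receptor ligand (2.70 ± 0.16), Itgb6, the integrin subunit that activates latent TGF-β (1.81 ± 0.14), Cldn4, a tight junction claudin (1.37 ± 0.09), and Mdk, a heparin-binding growth factor (1.36 ± 0.10). Of these only Cldn4 is, with Krt8 and Sfn, among the defining markers given above. Plaur (0.07), Fosl1 (0), Nupr1 (-0.04), Hbegf (-0.09) and Tnip3 (-0.10) were not called. Some genes are in more than 1 list, such as Cdkn1a and Gdf15, counted here and among the p53 targets below. Which cells carried these RNAs cannot be told in whole lung.

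Airway basal cell genes other than the members were called higher in 2 of 9 cases and lower in 5. Their median was -0.26, and 19% and 19.8% of all genes were called in those directions. Snai2, a transcription factor of basal and mesenchymal cells (0.53 ± 0.13), and Cdh3, P-cadherin (0.50 ± 0.05), rose. Sox2, the transcription factor of airway epithelium (-0.96 ± 0.07), Adh7, an alcohol dehydrogenase (-0.94 ± 0.04), and Dapl1 (-0.50 ± 0.12) fell with Krt15. Without the pool 3 of the 9 were lower and 2 higher, beside 20.4% and 29% of all genes. Dapl1 was not called there (-0.24, limma adjusted p = 0.183). Ngfr, a receptor that marks basal cells, was not called (0.07 ± 0.05, limma adjusted p = 0.369).

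**Figure D4:**
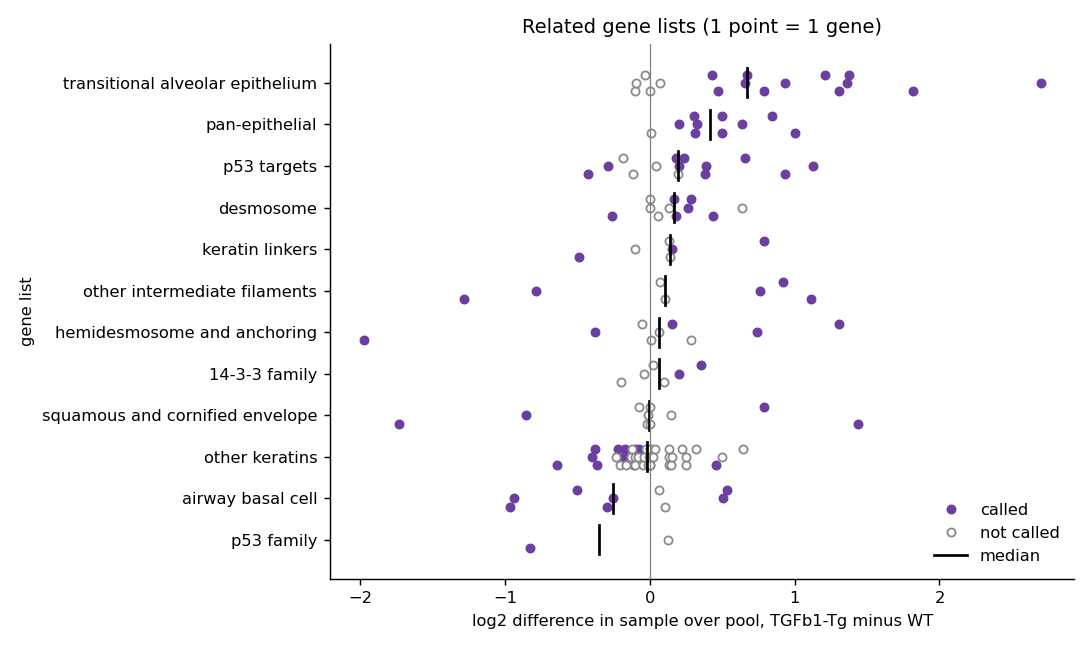
Log2 difference in sample over pool, TGFb1-Tg minus WT (horizontal axis), of each gene in the 12 related lists (vertical axis, ordered by median), with filled points for genes called, open points for genes not called and a bar at the median. The transitional alveolar epithelium list has the highest median, 0.67, and the other keratins lie around 0.

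Genes of proteins that anchor keratin filaments were called in both directions. In the hemidesmosome and anchoring list 3 of 9 rose and 2 fell, with a median of 0.07, beside 19% and 19.8% of all genes. Lamb3, a laminin chain (0.74 ± 0.04), and Plec, plectin (0.15 ± 0.02), were among those that rose, and Col17a1, a transmembrane collagen of hemidesmosomes (-1.97 ± 0.12), and Dst, which encodes the plakin BP230 (-0.38 ± 0.06), fell. Dst had the opposite sign without the pool (0.24) and was not called there. Of 11 desmosome genes 5 rose, led by the plakophilins Pkp3 (0.44 ± 0.03) and Pkp1 (0.28 ± 0.05), and Dsg2, a desmosomal cadherin, fell (-0.26 ± 0.07), with a list median of 0.17. Without the pool, Pkp1, which was dim, and Dsg2 had the opposite signs (-0.58 and 0.24). The call of Dsg2 was lost without TGFb1-Tg replicate 3 or 4 and without WT replicate 1, 3 or 4. Among 6 keratin linkers Eppk1, epiplakin (0.79 ± 0.12), and Plec rose and Ppl, periplakin (-0.49 ± 0.05), fell, with a median of 0.14. Ppl was not called without the pool (-0.15, limma adjusted p = 0.193).

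Squamous and cornified envelope genes showed no common direction, with 2 of 10 higher, 2 lower and a median of -0.01. Those counts were near the shares of all genes, 19% higher and 19.8% lower. Tgm1, a cross-linking transglutaminase (1.44 ± 0.09), and Sprr1a, an envelope precursor (0.79 ± 0.19), rose. Without the pool Sprr1a was at 0.39 and not called (limma adjusted p = 0.135). Scel, sciellin (-1.73 ± 0.26), and Ivl, involucrin (-0.85 ± 0.14), fell, and Ivl was dim. Of 7 other intermediate filament genes tested, the lamins Lmnb1 (1.12 ± 0.08), Lmnb2 (0.92 ± 0.06) and Lmna (0.76 ± 0.07) rose, and Synm, synemin (-1.28 ± 0.07), and Des, desmin (-0.78 ± 0.13), both of muscle, fell, with a median of 0.10. Vim was not tested, for lack of values.

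For Sfn, the p53 targets and the other 14-3-3 genes are the nearest relatives. Of 14 p53 targets 8 rose and 2 fell, beside 19% and 19.8% of all genes, with a median of 0.20. They were led by Eda2r, a TNF receptor family member (1.13 ± 0.06), Gdf15, a stress cytokine (0.93 ± 0.10), Cdkn1a, the cell cycle inhibitor p21 (0.66 ± 0.07), and Phlda3, an inhibitor of Akt (0.39 ± 0.05). Sesn1 (-0.43 ± 0.04) and Pmaip1 (-0.29 ± 0.02) fell as ratios. Neither was called in the sample channel alone, where Pmaip1 had the opposite sign (0.22). In the p53 family, Trp53 was not called (0.13 ± 0.05, limma adjusted p = 0.107) and Trp73 fell (-0.83 ± 0.04). Among the other 6 genes of the 14-3-3 family 2 rose, Ywhah (0.35 ± 0.05) and Ywhag (0.20 ± 0.03), with a median of 0.06, and all 6 had smaller differences than Sfn. Ywhag had the opposite sign without the pool (-0.19) and was not called there.

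Markers of other cell types moved beside the keratins, and their part in these results was not tested. Over all genes, 19% were called higher and 19.8% lower. Cycling cell markers were higher in 7 of 7 cases (median 2.26), with a summed sample intensity of 12.98 to 15.92 in TGFb1-Tg lungs, against 2.15 to 3.33 in WT lungs. Ciliated cell markers were lower in 6 of 6 (median -0.79), with sums of 4.14 to 5.31 in TGFb1-Tg lungs, against 7.03 to 8.08 in WT lungs. Club cell markers were lower in 4 of 4 tested (median -1.26), with sums of 17.55 to 20 in TGFb1-Tg lungs, against 34.25 to 38.34 in WT lungs. Those tested were Hp, Aldh1a7, Cckar and Cldn10, and Scgb1a1, Scgb3a2 and Cyp2f2 of that list were not tested. Of 3 alveolar type 2 markers tested 2 were higher (Napsa 0.64 ± 0.04 and Lamp3 0.53 ± 0.08), with sums of 34.92 to 39.67 in TGFb1-Tg lungs and 29.64 to 30.66 in WT lungs. Lamp3 was not called without the pool (0.26, limma adjusted p = 0.174). Of the type 2 list, Sftpc was not tested, and Sftpb, Sftpa1 and Slc34a2 were not on the array under those names.

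Mesothelial cells also carry Krt7, Krt8, Krt18 and Krt19. Of 7 mesothelial markers none was called higher and 4 were lower (median -0.45), and their sums overlapped, at 8.3 to 9.37 in TGFb1-Tg lungs and 8.23 to 10.13 in WT lungs. Without the pool 1 of the 7 was higher and 3 were lower. Krt5, Krt14 and Krt15 are also carried by stratified squamous epithelium and by thymus epithelium. Of 9 stratified squamous markers 2 were lower (Ivl and Krt10), close to the share of all genes, with sums of 1.54 to 1.59 in TGFb1-Tg lungs and 1.49 to 1.85 in WT lungs, and 5 were dim, Dsg3, Dsg1a, Ivl, Sprr3 and Krt13. Without the pool 1 of the 9 was higher and 3 were lower, and Krt10 changed sign, at 0.41 and called against -0.11 over the pool. Of 5 thymus epithelium markers 1 was lower, Aire (-0.13 ± 0.04), a call kept only with WT replicates 1 to 4 and TGFb1-Tg replicates 1 to 3 all in the fit, and the defining Foxn1 and Psmb11 were dim in both groups. Without the pool 1 of the 5 was higher and 2 were lower, Aire among them (-0.69, limma adjusted p = 0.00184). Of 5 endothelial markers 4 were lower, and of 5 leukocyte markers 2 were higher and 1 lower. Without the pool the endothelial list had 1 higher and 3 lower, and the leukocyte list 3 higher and 0 lower.

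The order of the lungs was partly shared among the simple keratins. TGFb1-Tg replicate 3 had the lowest log2 ratio of its group for Krt8 (0.51), Krt18 (0.83), Krt19 (0.34, of 3 arrays) and Sfn (0.74), but not for Krt7 (0.71). Among WT lungs, replicate 2 was highest and replicate 3 lowest for Krt7 (0.36 and -0.44) and for Krt19 (0.15 and -0.20). The same 2 lungs were the highest and the lowest for 5 of 5 alveolar type 1 markers measured, such as Rtkn2 (0.48 and -0.60) and Pdpn (0.41 and -0.32). In TGFb1-Tg lungs, replicate 3 was the highest for 4 of those 5. The order was read from these values and was not tested. Between the groups, 1 of the 5 was called, beside 38.8% of all genes. It was Clic5 (-0.27 ± 0.07), and that call was lost without TGFb1-Tg replicate 1, 2 or 4. Without the pool the list turned the other way, with 2 higher (Pdpn 1.00 and Aqp5 0.73) and 0 lower. There 29% of all genes were called higher and 20.4% lower. Their summed intensity was 26.58 to 30.31 in TGFb1-Tg lungs, against 15.55 to 24.59 in WT lungs. Ager and Cav1 of that list were not on the array under those names.

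**Figure D5:**
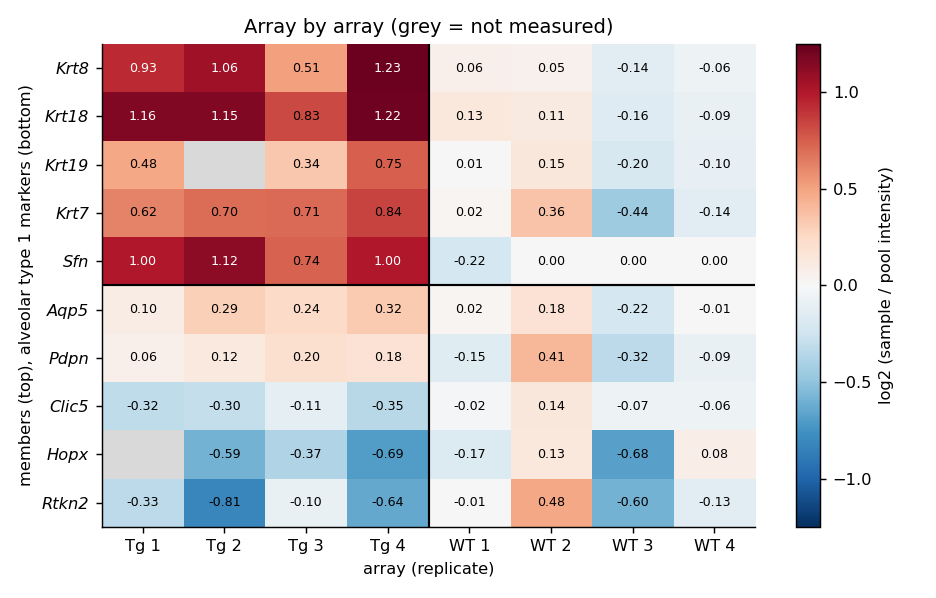
Log2 of sample over pool intensity as colour and number for 5 members (top) and 5 alveolar type 1 markers (bottom) on each array, with TGFb1-Tg replicates left of the line and WT replicates right of it. WT replicate 3 has the lowest WT value of all 10 genes except Sfn, and TGFb1-Tg replicate 3 has the lowest TGFb1-Tg value of Krt8, Krt18, Krt19 and Sfn.

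The genes whose log2 ratios lay nearest to each member over the arrays were found by root-mean-square distance among 16529 or 16530 genes with complete values and a mean intensity of at least 0.1. Nearest to Krt18 were Klhdc8a, Ckmt1 and Basp1 (0.09, 0.09 and 0.10 on the log2 scale over 8 arrays). Nearest to Krt8 were Raet1c, Ttc9 and Cstb (0.12, 0.12 and 0.13). Krt7 lay nearest to Nt5e, 9930111J21Rik2 and Stbd1 (0.10, 0.12 and 0.12), and Krt19, over 7 arrays, to Tfdp2, 1700008A23Rik and Mreg (0.07, 0.07 and 0.09). For Sfn they were Cgref1, Mad2l1 and Raet1c (0.07, 0.10 and 0.10). For Krt15 they were Yipf7, Ckmt2 and S1pr5 (0.15, 0.18 and 0.19). None of these is a member, and Raet1c is the gene shared by Krt8 and Sfn.

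Of the 3 members that were not called and of Krt14, Krt5 lay nearest to 5430427O19Rik (0.03), Krt14 to Tdpoz2 (0.02), Krt17 to Susd4 (0.10) and Trp63 to Gm9776 (0.10).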

How the data were processed

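Whole-lung RNA of 4 TGFb1-Tg and 4 WT mice was extracted with Trizol and 100 ng was amplified in 2 rounds, per the labels' protocols. The submitters' processing notes name Agilent Feature Extraction 8.5.1.1, without its settings. The authors deposited, per the file headers, an intensity for each channel and probe, to 2 decimals from 0.01 up, with a p-value per probe and array. The deposited log10 ratio of their value table equalled log10 of sample over pool within 0.002 for at least 99.99% of probes per array, with a median of 0.

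Sample over pool was turned to log2, probes of a gene were averaged, and groups were compared with lmFit and eBayes of limma 3.58.1 (R 4.3.3), two-sided, with Benjamini-Hochberg adjustment over 25647 genes; 87 had too few values. No flag for signal above background was used, and genes with a mean intensity under 0.1 are called dim. Python 3.11.15, pandas 2.3.3, SciPy 1.17.1 and matplotlib 3.10.9 were used. Nothing in the labels says more of the replicates than that they are separate samples, and p-values measure only the spread between them. The number of arrays limits the precision. The fit was tested on simulated data.

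The members, lists, tests and alternatives were chosen with earlier results of these data known. Genes named from a list are up to 4 called highest and up to 3 called lowest by difference, every gene of a list with 5 or fewer measured, and the 3 nearest genes of each member; those outside this rule were named after their values were seen. 1 gene that the rule would name is not reported here. The design assumed 1 pool, and the pools differ. Alternatives were the sample channel alone, quantile and loess normalization, an offset of 0.05, a minimum intensity of 0.1, single probes, the value table, another variance model, a replicate block and each array left out. Same-numbered arrays did not deviate together (r = 0.03, -0.04, 0.05 and 0.03), and the main fit did not pair them. That check cannot show that the samples were unpaired. RefSeq tables of GRCm38.p6 gave names and promoters.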

Additional observations from a re-analysis of the deposited data

Results flagged for a closer look

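Of the 17 groups of 4 arrays examined, 3 held a lung far from the others of its group, and chance alone gives about 1 in 20 such groups. Krt18 had a log2 ratio of 0.8272 in TGFb1-Tg replicate 3, and the other 3 TGFb1-Tg lungs were between 1.15 and 1.22. Without that lung the difference of Krt18 was 1.18, and it was called. Sfn was at -0.2224 in WT replicate 1, with the other 3 WT lungs at 0. Krt14 was at -0.0348 in WT replicate 3, again with the other 3 at 0. For Sfn and Krt14 the odd value is 1 step of 0.01 in intensity between sample and pool.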

How the results depend on the processing

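Krt8, Krt18 and Sfn kept their direction and their call under every alternative that gave them a value (17, 17 and 16), with limma adjusted p of up to 0.0317, 0.0458 and 0.0129. Quantile normalization of the ratios ended 4 calls, with differences of 0.61 for Krt7 (adjusted p = 0.362), -0.060 for Krt14 (0.220), -1.03 for Krt15 (0.111) and 0.43 for Krt19 (0.315). It left 3 members called higher and 0 lower, 1443 genes higher and 1270 lower among all genes (10.6% called, against 38.8%), and 23 higher and 11 lower among the genes of the related lists. Quantile normalization gives every array the same distribution of ratios. Before it, the SD of the log2 ratios was 0.39 to 0.41 on TGFb1-Tg arrays and 0.13 to 0.16 on WT arrays. The cause of the lost calls was not tested. The sample channel alone called 7442 genes higher, against 4874. There 3 pairs passed, each at the smallest possible exact p, Krt5 minus Krt15 at 1.82, Krt8 minus Krt18 at -0.28 and Krt6a minus Krt17 at -0.97. Krt17 was called with loess (0.42, adjusted p = 0.0495) and with trend and robust variance (0.41, 0.0421). Krt5 minus Krt14 changed sign with quantile normalization (-0.0098) and Krt7 minus Krt19 with the brighter Krt7 probe alone (-0.014). An offset of 0.05 gave 0.64 for Sfn and -0.95 for Krt15, both still called. A minimum intensity of 0.1 removed Krt17, Sfn and Trp63. With each array left out in turn, 5 to 6 members were higher and 2 to 2 lower, and the differences were 0.28 to 0.49 for Krt17, 0.64 to 0.91 for Krt7, 0.86 to 1.1 for Krt8, 1.04 to 1.18 for Krt18, 0.45 to 0.65 for Krt19, 0.96 to 1.09 for Sfn, -1.56 to -1.33 for Krt15, -0.13 to -0.10 for Krt14, -0.11 to -0.048 for Krt5 and -0.28 to -0.051 for Trp63. With the replicate number as a block, 5 members were higher and 2 lower, with 4391 genes higher and 4546 lower among all genes. The 0.01 steps limit the dim members.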
